A study of Mus musculus with 24 samples.

Results

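The cytosolic ribosomal protein genes of the mouse olfactory epithelium were followed across odor exposures. They were taken by symbol, as the Rpl, Rps, Rplp and Rpsa genes without "-ps" pseudogene names and without the Rps6k kinase genes. This gave 89 genes of the 57010 Ensembl IDs in each table, of which 52081 had a symbol. By symbol 53 belong to the large subunit and 36 to the small subunit, and the annotation lists 83 as protein coding and 6 as pseudogenes. The filter on low counts left 82 of the 89 in each batch.

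All mice were wild-type male C57BL/6J animals aged 8 weeks, housed alone in an odor-free chamber for 4 h and then exposed for 90 min. In the AD batch the odor was acetophenone, which is an aromatic ketone, or decanal, an aldehyde with a straight carbon chain, or the 1:1 blend of these called the AD mixture, or empty filter paper, called the AD control. In the OC batch they were given octanal (a straight-chain aldehyde shorter than decanal), cis-3-hexenol (an unsaturated alcohol), their 1:1 mixture called the OC mixture, or empty filter paper, called the OC control. Each odor was 10 µL on filter paper, and each of the 8 groups held 3 mice. Every animal's tissue went through buffers with cycloheximide, a drug that holds ribosomes on messenger RNA, before total RNA was purified and stranded poly(A) libraries were sequenced. The labels list centrifugation and detergent steps before the aliquot for RNA, and do not say whether that aliquot came from the homogenate before or after them.

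Cytosolic ribosomes translate the messenger RNA of the nuclear genome, and each of their many proteins is present in about equal number in the particle, so the genes are expressed together at high levels in most cells. The messenger RNAs of this family typically begin with a pyrimidine run known as the 5' TOP tract, through which mTORC1 and the protein Larp1 set their translation. In neurons, phosphorylation of the small-subunit protein Rps6 by S6 kinases is widely used as a mark of recent activity, and in the olfactory epithelium it is used to mark neurons that have answered an odor. These features are background and were not measured here, since the libraries report the amount of messenger RNA and neither its translation nor Rps6 phosphorylation.

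The windows below give 10 bases before and 20 bases from the annotated start of some members (RefSeq, build GRCm38.p6, on the gene's strand, 5' to 3'). They are examples picked after their values were seen. All of them but Rpl7l1 carry the tract, where only 14 of 64 members did at an annotated start. Capitals mark a C at the start and the pyrimidines that follow it without a break. Rpl35 lies at chr2:39005112-39005141 on the minus strand and Rpl35a at chr16:33056472-33056501 on the plus strand. Rps10 lies at chr17:27635225-27635254 on the minus strand and Rpl38 at chr11:114668570-114668599 on the plus strand. Rps6 lies at chr4:86857348-86857377 on the minus strand, Rplp2 at chr7:141447641-141447670 on the plus strand and Rpl7l1 at chr17:46782637-46782666 on the minus strand.
Rpl35: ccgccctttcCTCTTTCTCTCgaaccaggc
Rpl35a: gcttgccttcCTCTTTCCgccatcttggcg
Rps10: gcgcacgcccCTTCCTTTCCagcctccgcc
Rpl38: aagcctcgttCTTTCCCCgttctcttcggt
Rps6: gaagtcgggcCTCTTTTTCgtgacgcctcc
Rplp2: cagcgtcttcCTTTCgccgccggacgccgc
Rpl7l1: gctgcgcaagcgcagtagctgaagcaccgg

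The tract runs for 11 bases in Rpl35, 10 in Rps10, 9 in Rps6, 8 in Rpl35a and Rpl38 and 5 in Rplp2. Rpl7l1, a paralogue of Rpl7, has none at its annotated start. Of the 64 members found in the RefSeq table, 14 had a C followed by at least 4 pyrimidines exactly at an annotated start, which is 21.9%, against 3.01% of the 27025 genes in it. An annotated start that is off by a few bases loses the match, so absence in this window says nothing of the true start. The letters CCGGAAG, searched on both strands from 250 bases before to 50 bases after the start, stood in 26 of the 64 members (40.6%), against 9.93% of all genes. TATAAA stood in 8 of the 64 (12.5%), against 15.7% of all genes.

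Libraries held from 19003749 to 24802492 rounded counts. Omp, the defining marker of mature olfactory neurons, stood between 8875 and 13650 CPM (counts scaled by library size, with the trimmed mean of M-values, TMM) in the 24 libraries. Its OC controls, at 12260 to 13650 CPM, lay above every library of the other groups, and it was called lower with octanal (-0.45, SE 0.05, adjusted p = 0.0001), with cis-3-hexenol (-0.31, adjusted p = 0.0042) and with the OC mixture (-0.32, adjusted p = 0.00073), and not called with acetophenone, decanal or the AD mixture. Omp is among 12 listed mature neuron markers, of which more were called higher than lower with octanal, as given below. OC control replicate 3 stood apart from its group. Its chi-square per degree of freedom was 141.2 against replicate 1 and 110.3 against replicate 2, where the other pairs of replicates had 6.03 to 47.8, and its mitochondrial share was 0.595%, against 0.872% and 0.915% in replicates 1 and 2. The gland markers summed to between 1661 and 35420 CPM in OC controls. Every odor of the OC batch was set against these 3 controls, and without replicate 3 the members called were 29 lower and 1 higher with octanal (median -0.24), 0 lower and 1 higher with cis-3-hexenol (median -0.09) and 3 lower and 1 higher with the OC mixture (median 0.03). None of the listed markers of olfactory or other cell types that were in the tables was at 0 counts over all libraries. Of the 89 members, 42 had no exactly whole count in any library and 8 had exactly whole counts in all 24, Rpl10l with 0 throughout among them. Expected counts divide reads that match more than 1 sequence. Values of members with near-identical copies are therefore less certain than their counts alone would give. All tests of genes below are edgeR quasi-likelihood tests, two-sided, adjusted by Benjamini-Hochberg over all genes of the fit, and a gene was called at an adjusted p under 0.05. The share of all genes called is not given for fits that left out a library, and such fits have fewer libraries to test with.

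Among the 80 protein-coding members that were tested, the mean level over the 24 libraries divided by transcript length was highest for Rpl13, at 468.8 CPM per kilobase. Rps14 followed with 319 CPM per kilobase, Rplp0 with 293, Rpl4 with 283 and Rps9 with 259, all measured per length. The median of the 80 was 106.8 CPM per kilobase and the lowest was Rps20 at 10.7, whose listed transcript of 3706 bases is far longer than the others. At the other end, 4 members had under 1 count per library on average. Rpl10l had 0 counts in all 24 libraries, Rps12l1 had 2 in all, Rpl32l 11 and Rpl3l 13, while Rps3a3 had 54.

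Paralogues of single family members differed widely in their share of counts, which was not divided by transcript length. Rpl3l, known from striated muscle, gave 0 to 6 counts a group, against 20867 to 26861 for Rpl3. Rpl10l, known from testis, gave none, against 11954 to 15270 for Rpl10. Rpl39l, also known from testis, took between 0.610% and 1.39% of the Rpl39 and Rpl39l counts together in the group means. Rps27l made up 55.8% to 62.2% of the counts of the Rps27 pair, Rpl22l1 made up 29.2% to 33.3% of the Rpl22 pair, and Rpl7l1 made up 32.5% to 44.3% of the Rpl7 pair. The Rpl7l1 share was the paralogue share that moved most among groups. It was 39.1% ± 1.48 with decanal and 39.2% ± 0.359 with the AD mixture, against 44.1% ± 0.492 in AD controls, and 40.2% ± 0.525 with octanal, against 32.5% ± 1.53 in OC controls (SD, n = 3 each). In log2, Rpl7 rose by 0.34 with decanal, where Rpl7l1 had 0.04, and Rpl7 had -0.29 with octanal, where Rpl7l1 had 0.20.

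All 89 genes together took under 1% of each library. Their share of counts was 0.686% ± 0.0259 with acetophenone, 0.891% ± 0.0265 with decanal and 0.927% ± 0.0339 with the AD mixture, against 0.679% ± 0.0114 in AD controls (SD, n = 3 each). The decanal and AD mixture libraries lay entirely above the AD controls, with an exact two-sided permutation p = 0.1 for each, the smallest that 3 against 3 libraries can give. For acetophenone the groups overlapped and the exact permutation p was 0.9.

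In the OC batch the share was 0.794% ± 0.0211 with octanal, 0.859% ± 0.0559 with cis-3-hexenol and 0.907% ± 0.0651 with the OC mixture, against 0.897% ± 0.0563 in OC controls (SD, n = 3 each). The octanal libraries lay below all OC controls (exact permutation p = 0.1), while cis-3-hexenol and the OC mixture overlapped with them (exact permutation p = 0.5 and 0.8). The OC controls thus stood near the decanal and AD mixture libraries and not near the AD controls, although no odor was given to either control. Batch and animals cannot be told apart between the controls, so each odor was set against the control of its own batch. In a bulk tissue, fewer cells of a type and less RNA per cell cannot be told apart either.

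**Figure D1:**
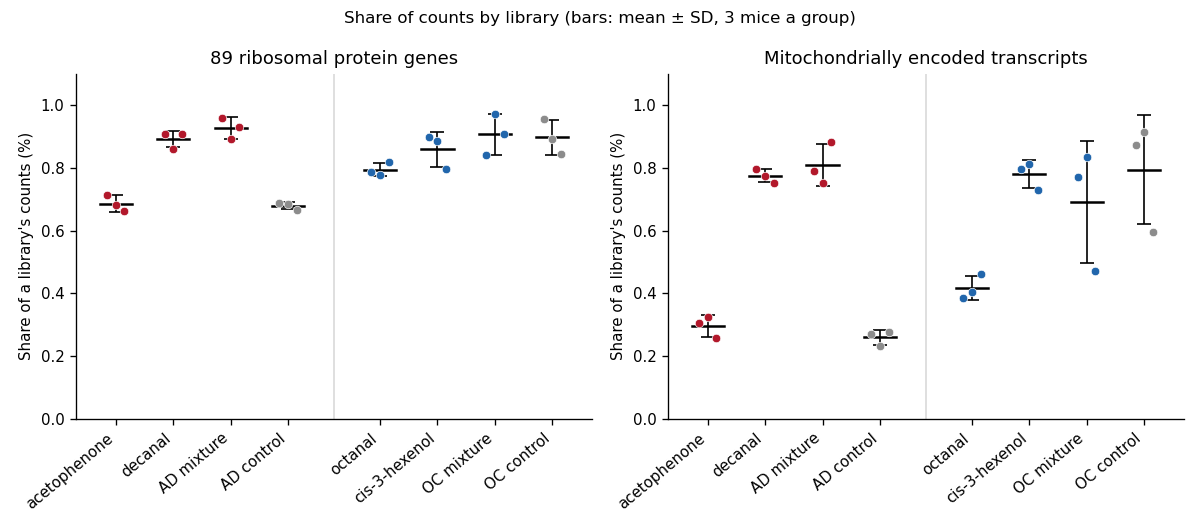
Share of each library's counts (percent) in the 89 ribosomal protein genes, left, and in mitochondrially encoded transcripts, right, for the 8 groups. Points are libraries and bars give the mean and SD of 3 mice. Decanal, at 0.891%, and the AD mixture, at 0.927%, stand above AD control at 0.679%, and octanal, at 0.794%, stands below OC control at 0.897%, and the right panel has the same order within each of these pairs.

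The share in mitochondrially encoded transcripts differed from controls in the same direction as the ribosomal protein share in the group means, except with the OC mixture. It was 0.297% ± 0.0339 with acetophenone, 0.775% ± 0.0211 with decanal and 0.808% ± 0.0665 with the AD mixture, against 0.260% ± 0.0237 in AD controls (SD, n = 3 each). It was 0.417% ± 0.0392 with octanal, 0.779% ± 0.0443 with cis-3-hexenol and 0.692% ± 0.195 with the OC mixture, against 0.794% ± 0.174 in OC controls. Its part in the ribosomal protein result was not tested beyond scaling, and leaving both groups of genes out of the scaling left 79 members called with decanal and 42 called lower with octanal.

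Acetophenone left the family without a call. None of the 82 tested members was called, where 0.00512% of all genes were, which is 1 of 19525. Unadjusted p was under 0.05 for 8 members by edgeR, against 6.59% of all genes, and DESeq2 called 0. The median log2 fold change of the members was 0.06, against 0.01 over all genes, and 77 of the 82 stood above 0, where 52% of all genes did. In 23 members the acetophenone libraries lay entirely above the AD controls, and in none below, against 8.2% and 6.34% of all genes.

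Rpl39, a small large-subunit protein that lines the exit tunnel, had 15.96, 14.85 and 14.70 CPM with acetophenone, against 12.96, 11.81 and 11.67 CPM in AD controls. These libraries did not overlap, and its log2 fold change of 0.32 (SE 0.08) was the highest of the family, but its adjusted p was 0.424. Rps27l followed at 0.20 and Rps13 at 0.19 (adjusted p = 0.53 and 0.55). The lowest were Rps3a2 at -0.07, Rpl10a at -0.05 and Rpl22l1 at -0.04 (adjusted p = 0.99, 0.88 and 0.96).

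With decanal almost the whole family stood higher than in AD controls. Of 82 tested members, 79 were called higher and 0 lower, where 11.4% of all genes were called higher and 12.5% lower. The median log2 fold change was 0.46, a ratio of 1.38, against 0.01 over all genes, and the members ran from 0.04 to 0.65. Decanal libraries lay entirely above the AD controls in 79 members, and in 20.7% of all genes. All 79 called members were also called in each of the 6 fits that left out a library.

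Members of both subunits rose. Of the large-subunit members 47 of 48 were called higher, with a median of 0.45, and of the small-subunit members 32 of 34, with a median of 0.47. The acidic stalk, the arm of the large subunit that recruits elongation factors, is made of Rplp0, Rplp1 and Rplp2, and all 3 were called higher. Rplp1 (ENSMUSG00000007892) had 98.82, 100.6 and 98.92 CPM with decanal, against 65.15, 68.73 and 64.69 CPM in AD controls. The groups lay far apart relative to their spread, and the log2 fold change was 0.59 (SE 0.04, adjusted p = 1.5e-06). Rplp2 rose by 0.56 (SE 0.05) and Rplp0 by 0.34 (SE 0.05, adjusted p = 0.00024).

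Rps6 (ENSMUSG00000028495), the S6 kinase substrate, had 229.9, 220.0 and 236.8 CPM with decanal, against 172.9, 170.3 and 169.1 CPM in AD controls, which gave a rise of 0.42 (log2; SE 0.05, adjusted p = 5e-05). Rps19 (ENSMUSG00000040952), a small-subunit protein whose human gene is mutated in Diamond-Blackfan anaemia, had 134.0, 126.8 and 137.8 CPM with decanal, against 90.96, 89.33 and 91.65 CPM in AD controls. In neither gene did the groups overlap, and Rps19 rose by 0.55 (SE 0.05, adjusted p = 3.3e-06). Rpsa (ENSMUSG00000032518), a small-subunit protein first known as a laminin receptor precursor, had 186.7, 180.5 and 190.9 CPM with decanal, against 141.2, 147.4 and 140.1 CPM in AD controls, and rose by 0.38 (SE 0.05, adjusted p = 0.00012).

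The largest called rises with decanal were those of Rps21 at 0.64 (SE 0.08, adjusted p = 6.5e-05) and Rps12 at 0.64 (SE 0.09, adjusted p = 0.00011), both small-subunit proteins. Rps21 had 20.03, 17.63 and 18.76 CPM with decanal, against 11.94, 11.29 and 12.96 CPM in AD controls. Rpl41, the smallest protein of the ribosome, rose by 0.52 (SE 0.07, adjusted p = 0.00018). The smallest called rise was that of Rps3, a small-subunit protein near the messenger RNA entry, at 0.26 (SE 0.05, adjusted p = 0.0015), followed by the large-subunit gene Rpl4, also at 0.26.

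The members that were not called with decanal were Rpl7l1, Rps4l and Rps3a2. Rpl7l1 (ENSMUSG00000063888) had 134.2, 131.0 and 128.8 CPM with decanal, against 125.1, 130.0 and 127.5 CPM in AD controls, so that the groups overlapped. Its log2 fold change of 0.04 (SE 0.05, adjusted p = 0.57) came with an error as small as those of the called members. Its partner Rpl7 rose by 0.34 (SE 0.05, adjusted p = 0.00027). Rps4l, listed as a pseudogene, had 0.17 with an SE of 0.18, against 0.41 (SE 0.05) for Rps4x, and its libraries spread from 44.28 to 59.68 CPM with decanal, against 39.86 to 53.83 CPM in AD controls. Rps3a2, also listed as a pseudogene, had only 403 counts over all 24 libraries and 0.65 (SE 0.36, adjusted p = 0.22) in log2.

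**Figure D2:**
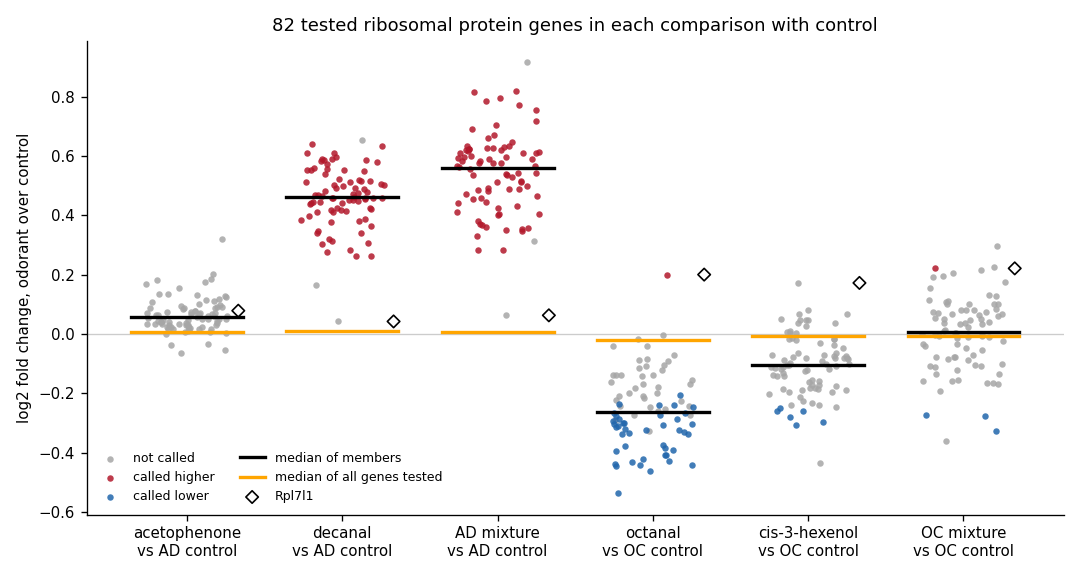
Log2 fold change (odorant over the control of its batch) of each of the 82 tested members in the 6 comparisons with control. Dots are genes, coloured by call, black and orange lines are the medians of the members and of all genes, and a diamond repeats Rpl7l1. The members' median is 0.46 with decanal, 0.56 with the AD mixture and -0.26 with octanal, and Rpl7l1 is the lowest member with decanal and the AD mixture and the highest with octanal.

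The AD mixture, which held decanal in equal parts with acetophenone, gave the same direction. It had 79 members called higher and 0 lower, where 10.6% of all genes were called higher and 11.6% lower, and 80 members had libraries entirely above the AD controls, against 18.6% of all genes. The median was 0.56 (ratio 1.47), against 0.01 over all genes, and the members ran from 0.06 to 0.92. All 79 were called in each of the 6 fits without a library.

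Rps21 had 21.42, 21.16 and 21.30 CPM with the AD mixture, against 11.94, 11.29 and 12.96 CPM in AD controls, and rose by 0.82 (SE 0.08, adjusted p = 8.3e-06). Rpl39 also rose by 0.82 (SE 0.08, adjusted p = 9.4e-06). Rpl35 (ENSMUSG00000062997), a large-subunit protein at the mouth of the exit tunnel, had 100.3, 94.61 and 103.8 CPM with the AD mixture, against 60.03, 57.87 and 55.27 CPM in AD controls, and rose by 0.79 (SE 0.05, adjusted p = 4.4e-07). Its decanal libraries had 90.11, 81.28 and 89.45 CPM and its acetophenone libraries 64.46, 63.32 and 62.45 CPM, so that the levels with acetophenone, decanal and the AD mixture did not overlap with each other. The smallest called rises were those of Rpl3 and Rpl4, at 0.28 each (adjusted p = 0.0023 and 0.0012). Rpl7l1 stood at 0.06 (SE 0.05, adjusted p = 0.39), Rps4l at 0.31 (SE 0.18, adjusted p = 0.24) and Rps3a2 at 0.92 (SE 0.36, adjusted p = 0.084).

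Decanal and the AD mixture each also stood above acetophenone. With decanal 79 members were called higher than with acetophenone (median 0.41, where 12.6% of all genes were called higher), and with the AD mixture 79 (median 0.49, against 11.6% of all genes). These comparisons share the decanal or AD mixture libraries with those above. Between the AD mixture and decanal no member was called by edgeR or by DESeq2, where 0% of all genes were called by edgeR. Unadjusted p was under 0.05 for 16 members, against 5.58% of all genes, and the median was 0.08, with 76 of 82 members above 0. Rps6 averaged 232.5 ± 8.00 CPM with the AD mixture and 228.9 ± 8.45 CPM with decanal (SD, n = 3 each).

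**Figure D3:**
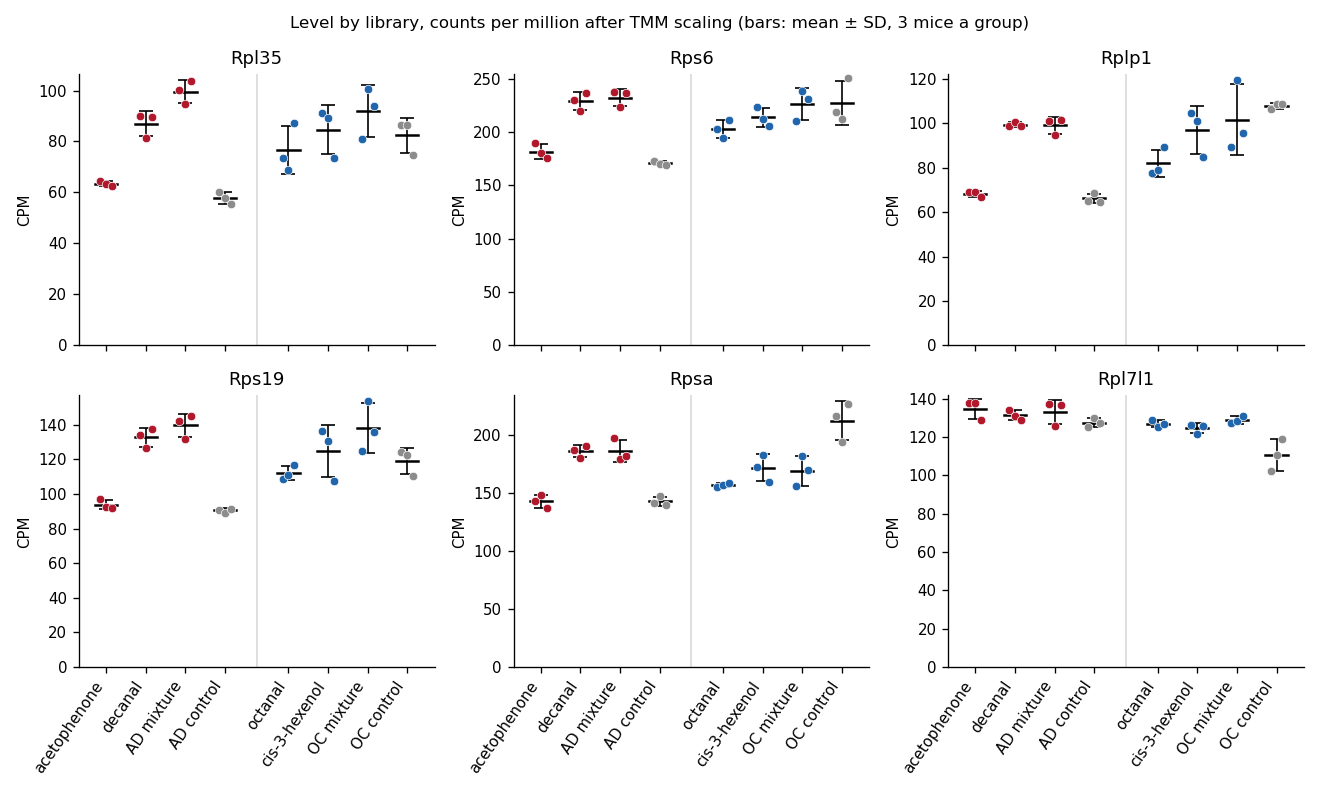
Level in each library (CPM after TMM scaling) of Rpl35, Rps6, Rplp1, Rps19, Rpsa and Rpl7l1. Points are libraries and bars give the mean and SD of 3 mice. In the first 5 panels the decanal and AD mixture points lie above the AD controls, and in the Rpl7l1 panel the OC controls lie below the octanal libraries.

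With octanal the family differed from its controls the other way, less evenly. Of 82 tested members 42 were called lower and 1 higher, where 15% of all genes were called lower and 14.4% higher, and 81 stood below 0, where 52.4% of all genes did. The median log2 fold change was -0.26 (ratio 0.833), against -0.02 over all genes. In 61 members the octanal libraries lay entirely below the OC controls, and in 1 above, against 20.6% and 19.7% of all genes. The count depended on single libraries. It was 17 called, all lower, without octanal replicate 1, and 20 called, 19 of them lower, without octanal replicate 2, and 17 members were called in each of the 6 such fits. Without the share of all genes called in these fits, the lower counts cannot be read as particular to the family.

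By subunit, 29 of 48 large-subunit members and 13 of 34 small-subunit members were called lower. The test of a difference between the subunits was not made. Rpl35a (ENSMUSG00000060636), a large-subunit protein whose human gene is another of those mutated in Diamond-Blackfan anaemia, fell furthest. It had 22.50, 21.10 and 23.28 CPM with octanal, against 36.09, 29.66 and 31.17 CPM in OC controls, or -0.54 in log2 (SE 0.10, adjusted p = 0.0015) with no overlap. Rpl38, a large-subunit protein studied for its part in the translation of Hox messenger RNAs, had -0.46 (SE 0.15, adjusted p = 0.026), a call that was lost without either of octanal replicates 1 and 2 or OC control replicates 2 and 3. Rpl27 had -0.45 (SE 0.10, adjusted p = 0.0031).

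Rpsa had 154.9, 156.6 and 158.8 CPM with octanal, against 216.4, 193.6 and 227.1 CPM in OC controls, and its log2 value fell by 0.44 (SE 0.08, adjusted p = 0.00081). Rpl8 (ENSMUSG00000003970), a large-subunit protein close to the peptidyl transferase centre, had 128.1, 125.1 and 127.3 CPM with octanal, against 167.7, 160.4 and 184.2 CPM in OC controls, and fell by 0.43 (SE 0.07, adjusted p = 0.00057). In both genes the groups were well apart. Of the stalk, Rplp1 fell by 0.40 (SE 0.10, adjusted p = 0.0082) and Rplp2 by 0.44 (SE 0.12, adjusted p = 0.01), while Rplp0 had -0.04 (SE 0.07, adjusted p = 0.71). The Rplp2 call was lost without octanal replicate 1 or without octanal replicate 2. Rpl41 had -0.38 (SE 0.11, adjusted p = 0.016), and its call was lost without either of the same replicates or without OC control replicates 1 or 2.

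Other members gave no call with octanal. Rps6 had 203.3, 194.7 and 211.3 CPM with octanal, against 218.7, 212.3 and 250.8 CPM in OC controls, or -0.16 in log2 (SE 0.08, adjusted p = 0.12). Rps19 had -0.08 (SE 0.09, adjusted p = 0.53) and Rpl32, a large-subunit protein often used as a reference transcript, had -0.12 (SE 0.10, adjusted p = 0.42). Nearest to 0 stood Rps27 at -0.0020 and Rpl23a at -0.02 (adjusted p = 0.99 and 0.90). Rpl7l1 was the member called higher, with 128.7, 125.4 and 126.9 CPM with octanal, against 102.2, 110.8 and 118.8 CPM in OC controls. Its log2 fold change was 0.20 (SE 0.06, adjusted p = 0.021), and the call was lost without octanal replicate 1, octanal replicate 3 or OC control replicate 1.

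cis-3-hexenol gave few calls. Of 82 tested members 6 were called lower and 0 higher, where 6.65% of all genes were called lower and 5.56% higher, a share of the members near that of all genes. The median was -0.10, against -0.01 over all genes, and 67 members stood below 0, where 50.9% of all genes did. The called members were Rpsa, Rpl8, Rps4x, Rpl6, Rpl18 and Rpl5, all of them among those called lower with octanal against the same controls. Rpsa had 172.8, 182.8 and 159.9 CPM with cis-3-hexenol, against 216.4, 193.6 and 227.1 CPM in OC controls, or -0.31 in log2 (SE 0.08, adjusted p = 0.02). Rpl8 had -0.30 (SE 0.07, adjusted p = 0.016).

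These calls rested on single libraries. The count was 2 without cis-3-hexenol replicate 1, 1 without replicate 2 and 0 without replicate 3, and it was 3 without OC control replicate 1, 9 without OC control replicate 2 and 1, called higher, without OC control replicate 3. No member was called in all 6 of these fits, for which the share of all genes called is not given. The lowest value was that of Rps4l, at -0.44 (SE 0.25, adjusted p = 0.28). The highest were those of Rpl7l1 at 0.17 (SE 0.06, adjusted p = 0.076), Rpl36 at 0.08 and Rps19 at 0.07.

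The OC mixture left the median of the family at 0.01, against -0.01 over all genes. It had 3 members called lower and 1 higher, where 12.7% and 11.5% of all genes were called. The groups did not overlap in 5 members higher and 4 lower, against 16.6% and 17.9% of all genes. Rpsa had 155.8, 181.6 and 170.0 CPM with the OC mixture, against 216.4, 193.6 and 227.1 CPM in OC controls, or -0.33 in log2 (SE 0.08, adjusted p = 0.006). Rpl8 had -0.28 (SE 0.07, adjusted p = 0.01) and Rpl18 -0.27 (SE 0.08, adjusted p = 0.017). Rpl7l1 was again the member called higher, with 127.2, 128.5 and 130.9 CPM with the OC mixture, against 102.2, 110.8 and 118.8 CPM in OC controls, or 0.22 in log2 (SE 0.06, adjusted p = 0.015).

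Rps27 and Rpl32 had the highest values beside it, at 0.30 (SE 0.11, adjusted p = 0.062) and 0.23 (SE 0.10, adjusted p = 0.11), and Rps4l the lowest, at -0.36 (SE 0.25, adjusted p = 0.33). The OC mixture had the largest SD of the share of counts among the 8 groups, 0.0651 percentage points. Rplp1 had 89.51, 119.7 and 95.65 CPM with the OC mixture, against 106.3, 108.9 and 108.6 CPM in OC controls. Without OC control replicate 2 the number of members called was 7, without OC mixture replicate 1 it was 4 higher and 1 lower, and 1 member was called in all 6 fits without a library.

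Among the OC odors themselves edgeR called no member and 0% of all genes. Between octanal and cis-3-hexenol the median was -0.14, 23 members had an unadjusted p under 0.05, against 13% of all genes, and DESeq2 called 1 lower, against 0.454% of all genes. Between the OC mixture and octanal the median was 0.26, and 61 members had an unadjusted p under 0.05, against 12.8% of all genes. For the OC mixture against octanal DESeq2 called 25 members higher, against 0.881% of all genes, and edgeR with no filter on low counts called 28, against 0.811%. Between the OC mixture and cis-3-hexenol the median was 0.11, 5 members had an unadjusted p under 0.05, against 6.19% of all genes, and DESeq2 called 0.

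The differences with the straight-chain aldehydes were compared directly, in a fit of all 24 libraries that tested the decanal difference minus the octanal difference. It called 79 of 82 members higher with decanal and 0 lower, where 21.2% of all genes were higher and 18% lower. The median difference was 0.74 on the log2 scale, against 0.07 over all genes. For Rpl35a it was 1.17 (SE 0.15, adjusted p = 1.4e-06), for Rplp1 1.00 (SE 0.11, adjusted p = 4.9e-07), for Rpsa 0.84 (SE 0.09, adjusted p = 2.5e-07) and for Rps6 0.60 (SE 0.09, adjusted p = 1e-05). For Rpl7l1 it was -0.14 (SE 0.07, adjusted p = 0.14). The odors were given in different batches against different controls, so odor and batch cannot be told apart in this difference.

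The members called lower with octanal were all among those called higher with decanal. They were 42 of 42 octanal calls, or 100%, and 53.2% of the 79 decanal calls. Since 79 of the 82 tested members were called with decanal, nearly any set of members would overlap with them, and 17 of the 42 were called in every octanal fit without a library. Across the 80 protein-coding members Pearson's r between the decanal and the octanal log2 fold changes was -0.42 and Spearman's rho -0.25. With the offsets for transcript length and GC content given below, r was -0.55 and rho -0.54. These are descriptions over genes that share their libraries and part of their reads, and that are mostly short.

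**Figure D4:**
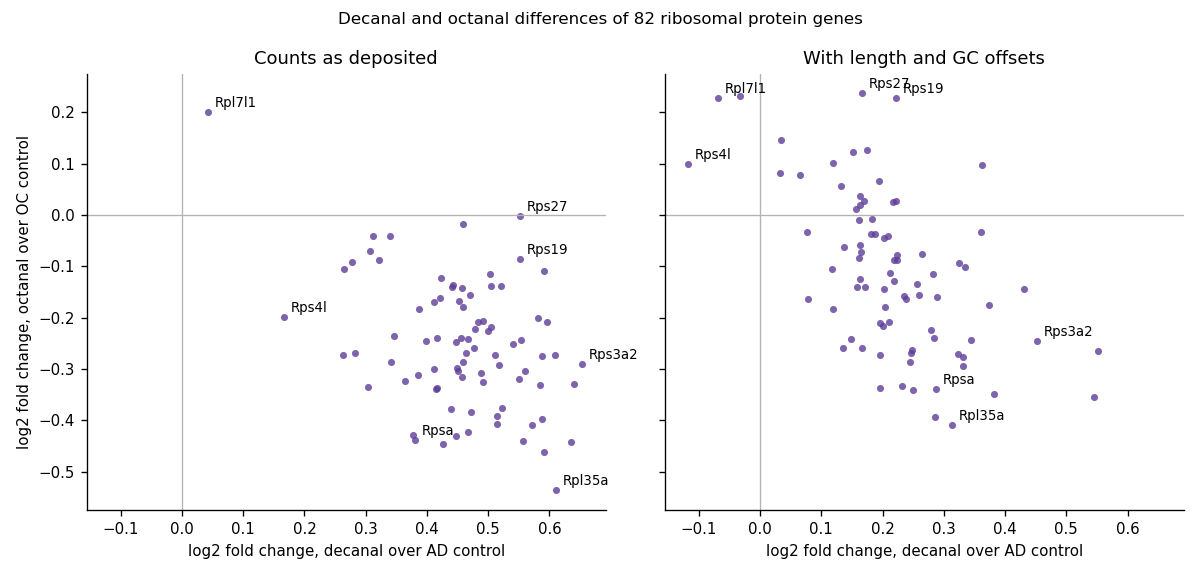
Log2 fold change of the 82 tested members with decanal over AD control (horizontal) and with octanal over OC control (vertical), from the counts as deposited, left, and with offsets for transcript length and GC content, right. Each dot is a gene. On the left nearly all dots lie to the right of and below 0 and Rpl7l1, at 0.04 and 0.20, lies alone above 0, and on the right the cloud moves toward 0 on each axis, with Rps19 at 0.22 and 0.23.

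Ribosomal protein transcripts are short. The tested members had a median length of 740 bases, against 2456 bases over the tested AD genes with a length. With decanal the shorter members had the higher fold changes: Pearson's r with log2 length was -0.51 over the 80 protein-coding members, and it was -0.53 with the AD mixture and 0.21 with octanal. With offsets fitted to each library for transcript length and GC content over all genes, r was 0.45 with decanal, 0.28 with the AD mixture and -0.35 with octanal. These are descriptions over genes that share libraries, and length goes with level, with which r was -0.57 with decanal and -0.68 with the AD mixture.

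With these offsets the decanal median was 0.21, with 58 members called higher and 0 lower, where 6.88% of all genes were called higher and 9.14% lower. The AD mixture median was 0.27, with 70 called higher and 0 lower, against 7.16% of all genes called higher and 9.29% lower. The octanal median was -0.12, with 21 called lower and 4 higher, where 10.9% and 13.9% of all genes were. Over acetophenone, decanal kept 36 of its 79 calls and the AD mixture 66 of its 79, where 8.32% and 8.14% of all genes were called higher with offsets. In the test of the decanal difference minus the octanal difference 58 members were higher and 2 lower, at a median of 0.34, where 15.6% and 18% of all genes were called.

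Single members moved with the offsets to different degrees. Rpl35 had 0.36 (SE 0.05, adjusted p = 0.00015) with decanal and offsets, against 0.59 without them, and Rpsa 0.29, against 0.38. Rps20 had 0.55 (adjusted p = 0.0001) and Rps24 0.55 (adjusted p = 0.00011), the highest values with decanal and offsets among called members, against 0.47 and 0.59 without them. Their listed transcripts of 3706 and 1613 bases are far longer than the members' median of 740 bases. The offsets rest on these listed lengths, and whether those are the transcripts present here was not tested. Rpl41, Rpl38, Rpl27, Rpl8 and Rps27 were among the members that lost their decanal calls. With octanal and offsets Rpl35a had -0.41 (adjusted p = 0.0041), Rpsa -0.34 (adjusted p = 0.0026) and Rpl8 -0.18 (adjusted p = 0.047), all still called lower. Rps19 had 0.23 (adjusted p = 0.014) and was called higher, against -0.08 without offsets, and Rps27 had 0.24 (adjusted p = 0.039), against -0.0020. Rpl7l1 kept its call, at 0.23 (adjusted p = 0.0095).

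**Figure D5:**
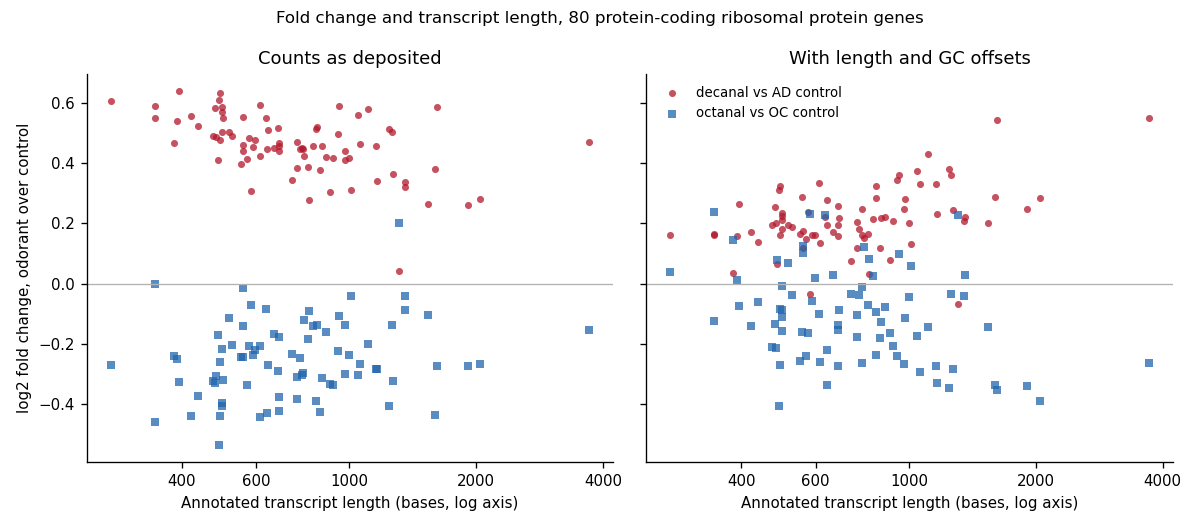
Log2 fold change (odorant over control) of the 80 protein-coding members against annotated transcript length (log axis), from the counts as deposited, left, and with offsets for length and GC content, right. Circles give decanal and squares octanal. On the left the circles fall with length, with r = -0.51, and on the right they rise, with r = 0.45, and most stay above 0.

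Fau, Rack1 and Rpl36al, ribosomal protein genes that the symbol rule does not take, were each called higher with decanal and with the AD mixture and lower with octanal. Fau, which encodes Rps30 fused to a ubiquitin-like protein, rose by 0.39 (SE 0.05, adjusted p = 0.00012) with decanal and by 0.50 (SE 0.05, adjusted p = 1.5e-05) with the AD mixture, and had -0.35 (SE 0.10, adjusted p = 0.016) with octanal. Rack1, a scaffold protein on the head of the small subunit, rose by 0.29 (SE 0.05, adjusted p = 0.00092) with decanal and had -0.29 (SE 0.07, adjusted p = 0.0089) with octanal. Rpl36al had -0.52 (SE 0.11, adjusted p = 0.0024) with octanal. Neither Fau, Rack1 nor Rpl36al was called with acetophenone, cis-3-hexenol or the OC mixture.

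The lists that follow can be read against the genes called in all, which were 11.4% higher and 12.5% lower with decanal, 10.6% higher and 11.6% lower with the AD mixture, and 14.4% higher and 15% lower with octanal. Of the 8 elongation factor genes, 7 were called higher with decanal (median 0.29) and 7 with the AD mixture (median 0.30), and 5 were called lower with octanal (median -0.23). Eef1b2, a subunit of the factor that recharges Eef1a, had 0.47 (SE 0.06, adjusted p = 3.2e-05) with the AD mixture, and Tpt1, listed with them and itself the product of a TOP messenger RNA, had 0.46 (SE 0.06, adjusted p = 4.7e-05). Eef2, the translocase, was called lower with the OC mixture, at -0.49 (SE 0.08, adjusted p = 0.00075). Across all genes the medians of these comparisons lay between -0.02 and 0.01.

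Initiation factor and ribosome assembly genes had calls in both directions. Of 29 initiation factor genes 10 were called higher and 3 lower with decanal (median 0.02), and 7 higher and 6 lower with octanal (median -0.01), where 11.4% of all genes were called higher and 12.5% lower with decanal, and 14.4% and 15% with octanal. Pabpc1, which binds poly(A) tails, had -0.47 (SE 0.07, adjusted p = 0.00047) with the OC mixture, Eif5b -0.74 (SE 0.13, adjusted p = 0.0011) and Eif3l 0.54 (SE 0.07, adjusted p = 0.00012) with octanal. Of 32 ribosome biogenesis genes 4 were called higher and 7 lower with decanal (median -0.03), and 9 higher and 3 lower with octanal (median 0.04), with the decanal share near that of all genes called higher. Rrn3, an initiation factor of RNA polymerase I, had 0.92 (SE 0.10, adjusted p = 8.2e-05) with octanal, and the polymerase I subunit gene Polr1b 0.81 (SE 0.13, adjusted p = 0.00054).

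Of the 16 genes of mTORC1, its regulators, the S6 kinases and Larp1, 2 were called higher and 2 lower with decanal (median 0.03), near the 11.4% and 12.5% of all genes, and 2 higher and 6 lower with octanal (median -0.11), against 14.4% and 15%. Tsc2, which restrains mTORC1, had -0.60 (SE 0.07, adjusted p = 3.4e-05) with decanal, and Tsc1, its partner, -0.77 (SE 0.14, adjusted p = 0.0014) with the OC mixture. Deptor, an inhibitor bound to mTOR, had -0.73 (SE 0.20, adjusted p = 0.015) with the OC mixture.

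Nuclear genes for mitochondrial proteins were listed too, and with decanal 11.4% of all genes were called higher and 12.5% lower, with octanal 14.4% and 15%. Of 78 tested nuclear genes for respiratory chain subunits, 61 were called higher with decanal (median 0.37) and 41 lower with octanal (median -0.29), and of 79 tested mitochondrial ribosomal protein genes 50 were called higher with decanal (median 0.25) and 25 lower with octanal (median -0.16). Their median transcript lengths were 709 and 1223 bases. Mrpl52, a mitochondrial ribosomal protein gene, had 0.73 (SE 0.07, adjusted p = 6.1e-06) with the AD mixture, and Ndufc2, of complex I, had 0.72 (SE 0.07, adjusted p = 9.8e-06). Of 37 proteasome genes, with a median length of 1512 bases, 16 were called higher and 3 lower with decanal (median 0.11). Of 15 tested mitochondrially encoded genes 14 were called higher with decanal (median 1.62) and 13 lower with octanal (median -1.02).

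Most markers of blood and marrow were called in the family's direction with decanal and with octanal. Of all genes, 11.4% were called higher with decanal and 15% lower with octanal. Of 9 erythroid markers 8 were called higher with decanal and 9 lower with octanal, and of 12 neutrophil and marrow markers 11 were called higher with decanal and 11 lower with octanal. The summed erythroid level ran from 228.9 to 630.2 CPM with acetophenone, from 2154 to 2593 CPM with decanal and from 1811 to 2561 CPM with the AD mixture, against 495.4 to 654.0 CPM in AD controls. In the OC batch it ran from 750.2 to 1130 CPM with octanal, 1304 to 1954 CPM with cis-3-hexenol and 851.0 to 1827 CPM with the OC mixture, against 2171 to 4501 CPM in OC controls. The cis-3-hexenol and OC mixture libraries thus also lay below the OC controls. On the same scale the members summed to 7852 to 8921 CPM with cis-3-hexenol, against 8906 to 9361 CPM in OC controls. With the OC mixture the members' sum ran from 8401 to 9875 CPM. The summed neutrophil and marrow level ran from 316.4 to 460.9 CPM with decanal, against 182.7 to 624.8 CPM in AD controls, so that the groups overlapped. With octanal this level ran from 166.1 to 270.5 CPM, against 292.7 to 458.9 CPM in OC controls. No marker of either list was at 0 over the 24 libraries. Their part in the ribosomal protein result was not tested.

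Other marker lists had calls as well, to be read against 11.4% of all genes called higher and 12.5% lower with decanal, and 14.4% and 15% with octanal. Of 8 macrophage markers 5 were called higher with decanal and 5 lower with octanal, of 10 bone markers 5 higher with decanal and 7 lower with octanal, and of 11 tested lymphocyte markers 4 were called higher with decanal. Of 12 mature olfactory neuron markers 1 was called higher and 6 lower with decanal, and 6 higher and 2 lower with octanal. Their summed level ran from 19500 to 21480 CPM with decanal, against 20050 to 21480 CPM in AD controls, and from 19440 to 20730 CPM with octanal, against 20600 to 23350 CPM in OC controls.

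Within the family, members with the 5' TOP tract at the annotated start were set beside those without it, with no test. With decanal the 13 tested members with the tract had a median log2 fold change of 0.55, and the 47 without it 0.46. With the AD mixture the medians were 0.62 and 0.56, and with octanal -0.27 in each. Members whose deposited counts were whole in all 24 libraries numbered 4 among those tested, and 3 of them, Rpl32, Rpl39 and Rps21, were called higher with decanal, the exception being Rps4l. Of the 42 with no whole count 41 were called higher.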

How the data were processed

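The 24 libraries came from 8 groups of 3 mice in 2 batches of 12. The authors deposited expected counts (estimated counts) per Ensembl gene, 1 table a batch, not scaled between libraries. Per the submitters' processing notes, STAR 2.7.10b, Salmon 1.10.1, R 4.4.2 and GRCm39 were used, with roles and annotation release not given in the sources used here. Whether counting used strand is also not given. Counts were rounded, by at most 0.5. GENCODE M21 (GRCm38) supplied symbols, biotypes, lengths and GC content by Ensembl ID, taking for each gene the transcript of the best APPRIS grade and the shortest among ties. IDs without a symbol held 0.303% of AD and 0.310% of OC counts.

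The members and lists were chosen with earlier results of these data known. Each batch was fitted with edgeR 4.0.16 in R 4.3.3 (filterByExpr, TMM, quasi-likelihood, no block) over its 12 libraries, 19525 genes in AD and 19175 in OC, with 13 comparisons in all, the last a difference of differences over 20018 genes in 24 libraries. Standard errors were taken from the F statistic, as the size of the log2 change over its square root. Shares were compared by two-sided exact permutation tests. Alternatives were DESeq2 1.42.0 size factors and Wald test, other scaling and filters, a robust fit, a replicate block, loess offsets for length and GC (span 0.5), the 6 libraries compared alone and each library left out. The offsets fitted without ribosomal and mitochondrial genes were added after the data were seen. The steps were tested on simulated counts for decanal and for octanal against their controls. Of simulated log2 changes of 0.5, 58% and 44% were found. A simulated trend with transcript length alone gave 2391 and 1694 calls without offsets, and 2 and 0 with them. The size of that trend was set beforehand and not fitted to these libraries. The trend and the offsets used the same listed lengths, so this does not test whether those lengths hold here.

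Members named were, for each odor, the 3 highest and 3 lowest log2 fold changes, the paralogues and their partners, the 5 highest and lowest levels per length, members called against the majority or not called where nearly all were, and Rps6, Rps19, Rpl32, Rplp0, Rplp1, Rplp2, Rpsa and Rpl41. Others were named as examples after their values were seen. Replicates are separate mice per the labels. No pair of libraries within a group agreed within sampling noise (chi-square per degree of freedom from 6.03 to 141.2), and pairs across groups were not checked. Some results are not reported here.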

Additional observations from a re-analysis of the deposited data

Results flagged for a closer look

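The decanal and octanal differences went in opposite directions across the family, and the test of the difference between them, in 1 fit of all 24 libraries, called 79 of 82 tested ribosomal protein genes. The median difference was 0.74 on the log2 scale, with the decanal median at 0.46 and the octanal median at -0.26, and with offsets for length and GC content the median difference was 0.34, the decanal median 0.21 and the octanal median -0.12, with 58 members higher and 2 lower. Odor and batch cannot be told apart in it.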

How the results depend on the processing

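The counts of 79 members with decanal, the AD mixture and the AD mixture over acetophenone stayed within 1.5 times under every alternative run, as did the 79 of the decanal difference minus the octanal difference. With length and GC offsets members called in either direction numbered 37 for decanal over acetophenone, 25 for octanal and 14 for the OC mixture. Most of the 25 were lower, and the 14 went both ways. With the offset curves fitted without ribosomal and mitochondrial genes the counts were 41, 25 and 14. With offsets and the replicate block they were 36, 20 and 11. With the offsets fitted over all genes, 8.32% of all genes were called higher for decanal over acetophenone. For octanal 10.9% were called lower and 13.9% higher. Other counts in this paragraph are given without the share of all genes, save where it stands above. The replicate block alone gave 79 with decanal, 36 with octanal and 4 with cis-3-hexenol. Replicate numbers did not pair the libraries, since 4 of 36 same-numbered pairs had a correlation of deviations over 0.1. For cis-3-hexenol DESeq2 and no filter called 10 each and the fit of the 6 libraries compared 0. For the OC mixture they called 7, 8 and 1, for octanal over cis-3-hexenol 1, 4 and 3, and for the OC mixture over octanal DESeq2 called 25 and no filter 28. Without 1 library at a time, counts ran from 17 to 40 with octanal, 0 to 9 with cis-3-hexenol and 3 to 7 with the OC mixture. The difference in share of counts ran from -0.00673 to 0.0188 percentage points for acetophenone and from -0.0225 to 0.0426 for the OC mixture. The other odors kept its direction. The cause of these shifts was not tested. Members called with decanal had a mean of at least 317 counts a library in the AD batch, and Rps3a2 had 17.0.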
